A study of Danio rerio with 12 samples.

Results

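The genes described here are those of the zebrafish sarcomere, the contractile unit of muscle, as one array platform measured them in whole larvae. Members were every gene whose probe set carried a single symbol beginning with the names of sarcomeric myosins, troponins, tropomyosins, parvalbumins, muscle actins, actinins, creatine kinases, myozenin, myosin-binding protein C, myomesin, titin or desmin. Symbols of the cardiac myosins and cardiac myosin-binding protein, and of non-muscle and smooth muscle myosin heavy chains, were left out. The brightest probe set stood for each gene. The rule matched 67 probe sets and gave 54 members of 8793 named genes. A member entered the tests where its mean log2 signal reached the 25th percentile of all probe sets, and 53 members did. The exception was tnnt2c, a cardiac-type troponin T gene, whose signal lay between 24.8 and 67.0.

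The matched names go only partly with skeletal muscle. Of the 54 members, 37 were taken by symbol as genes of skeletal muscle and 17 as other forms or other proteins caught by the same letters. Among these 17 were the deSUMOylating isopeptidases desi1a, desi1b and desi2, the ubiquitin ligase gene mylipa, and ckmt1 and ckmt2a, whose products are mitochondrial creatine kinases. The rest of them were smooth muscle or non-muscle forms (acta2, actn1, myl6, myl9b, myl12.1, mylka), the tropomyosins tpm4a and tpm4b, and cardiac or slow-type troponins (tnnt2a, tnnt2c, tnnc1a). The 37 skeletal genes are not all particular to skeletal fibres. Among them, desmb is also on the smooth muscle list used below, and tpm1 and pvalb7 are also expressed in other cells. No myomesin gene had a single-symbol probe set. The slow myosin heavy chain gene smyhc1 and the nebulin gene neb lie outside the rule.

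Muscle contracts when thick filaments of myosin pull on thin filaments of actin. Tropomyosin and the troponin complex on the thin filament give calcium control over that pull, titin spans from the Z-disc to the middle of the sarcomere, and alpha-actinin anchors thin filaments at the Z-disc. Fast fibres of fish also hold much parvalbumin, a soluble protein that binds calcium, and creatine kinase, which restores ATP from phosphocreatine. Such fibres make up most of the trunk of a swimming larva.

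The study asked which responses to an estrogen and to a dioxin overlap. Wild-type larvae from a commercial supplier (EkkWill) were exposed from 72 to 96 hours post fertilisation (hpf). They were collected whole at 96 hpf, about 30 to a pool, and each pool gave RNA for one single-colour Affymetrix array. The titles give 4 groups of 3 arrays: E2+TCDD with both agents at the doses that follow, TCDD (2,3,7,8-tetrachlorodibenzo-p-dioxin, 1 nM), E2 (17beta-estradiol, 0.1 µM), and the solvent DMSO at 0.1%, in which the agents were dissolved. The design text calls the 3 arrays of a group biological replicates run in 2 batches. Nothing in the labels says that their pools came from separate spawnings, so p-values measure array-to-array spread, which may be in part technical. In pools of whole larvae, fewer cells of a type and less RNA per cell cannot be told apart.

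Each array also carries a letter and a number in its description. Letter C marks the first replicate of each group, with 4 different numbers. Letter B marks the other 8 arrays, in 2 runs of numbers. The second run holds E2+TCDD 3, E2+TCDD 2, TCDD 3 and TCDD 2, in order of falling number, and its numbers occur under letter B only. The first run holds E2 3, E2 2, DMSO 3 and DMSO 2, and repeats the numbers of letter C: E2 3 shares its number with E2+TCDD 1, E2 2 with TCDD 1, DMSO 3 with E2 1, and DMSO 2 with DMSO 1. Arrays with one number thus carry different titles in 3 of 4 cases, and the sources do not say whether they share an RNA. In letter B all titles with TCDD lie in the second run, so title and run cannot be told apart there.

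Titles were set against cyp1a, the monooxygenase gene that TCDD induces, and cyp19a1b, the brain aromatase gene that estrogen induces. In 6 of the 12 arrays, all of letter B, these markers went against the title. The array titled TCDD 2, for example, had a cyp1a signal of 324 and that titled E2 2 had 21022.5, while that titled DMSO 1 had 382. For cyp19a1b, the array titled E2 2 had 45.7 and that titled DMSO 3 had 287. The 6 are E2+TCDD 2, TCDD 2, TCDD 3, E2 2, E2 3 and DMSO 3. Results by title are therefore given with all 12 arrays and again without these 6, and arrays are named below by their titles without taking those as the exposure. Values within one probe set are compared across arrays. Signals of different probe sets are not ranked, since brightness also depends on the probes.

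Most members were bright and varied little. The standard deviation (SD) of the log2 signal over the 12 arrays had a median of 0.141 among the 53 tested members, against 0.196 among all 11626 probe sets tested, and 40 of 53 members lay below that second value. The difference went with brightness. Among probe sets with a mean signal of 10000 or more the medians were 0.0987 for 16 members and 0.109 for all 193 probe sets. Between 1000 and 10000 they were 0.14 for 20 members and 0.142 for all 2049, and below 1000 they were 0.233 for 17 members and 0.211 for all 9384. In 36 of 53 members the highest signal was under 1.5 times the lowest, and in 6 it was 2 times or more.

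**Figure D1:**
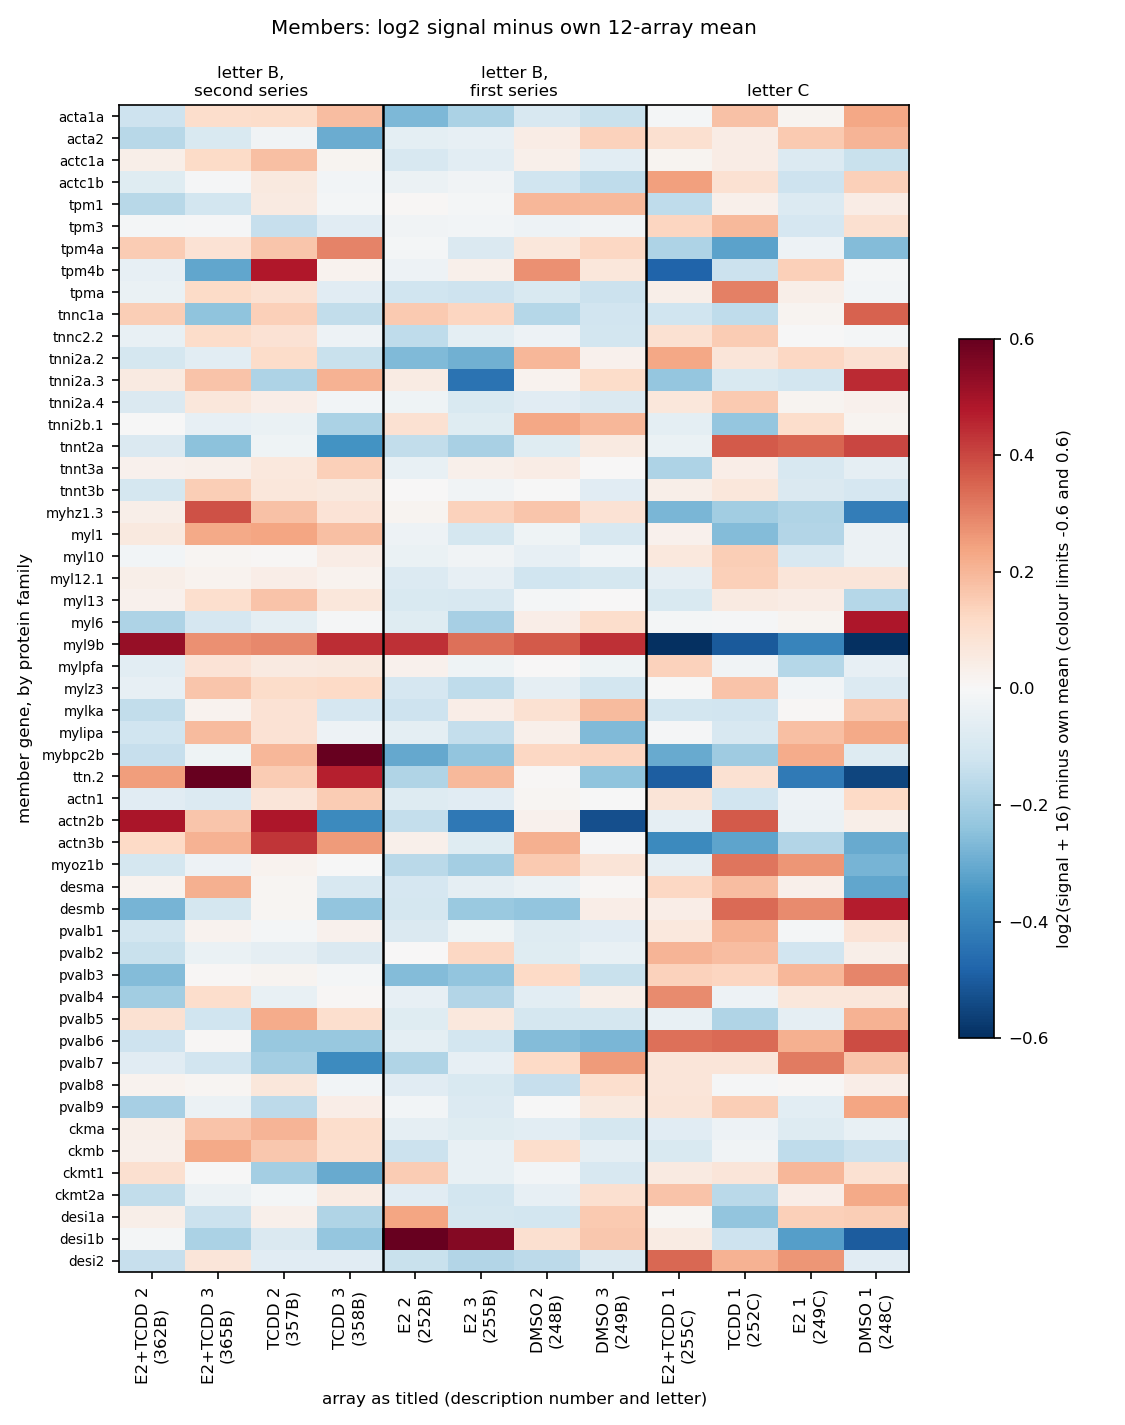
Log2(signal + 16) of each tested member minus its own mean over the 12 arrays, with member genes in rows by protein family and arrays in columns by letter and run of numbers. Colours end at -0.6 and 0.6. The columns of letter C stand apart from both runs of letter B in myl9b, which is blue in letter C, and in pvalb6, which is red there.

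In the thin filament, actc1b, an alpha-actin gene expressed in zebrafish skeletal muscle, had signals from 32593 to 42989 with a median of 35729.7. The tropomyosin gene tpma had signals from 15882 to 21442 with a median of 17020.2. Some fast troponin genes varied little: the SD was 0.0772 for tnni2a.4, which encodes an inhibitory subunit, and 0.0795 for tnnt3b, which encodes a tropomyosin-binding subunit. Signals of tnni2a.4 ran from 18345 to 21836, and those of tnnt3b from 22966 to 27359. A second tnni2a.4 probe set ran from 10311 to 14980. The calcium-binding subunit gene tnnc2.2 ran from 20216 to 24968. None of these 5 genes reached a 1.5-fold range over the arrays. The remaining actins were acta1a, actc1a and acta2, and the remaining tropomyosins tpm1, tpm3, tpm4a and tpm4b. Dim troponin genes varied more: tnni2a.3 ran from 60.7 to 126, tnni2a.2 from 154 to 227, tnnt2a from 168 to 296 and tnnc1a from 59.3 to 98.0. The troponin genes tnni2b.1 ran from 1759.6 to 2432 and tnnt3a from 5648 to 7095. The SD was 0.233 for tnni2a.3, 0.171 for tnni2a.2, 0.139 for tnni2b.1 and 0.0849 for tnnt3a.

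In the thick filament, the light chain genes myl10 and mylpfa were among the 5 members with the smallest SD, 0.0625 and 0.0798. The signal of myl10 ran from 9530.0 to 11289, and that of mylpfa, a regulatory light chain of fast fibres, from 26998 to 33440.3. The fast myosin heavy chain gene myhz1.3 varied more, from 9906 to 17213, with an SD of 0.226. Near-identical neighbours of myhz1.3 may share its probe set, so the value may stand for several genes, and the same holds for actin paralogs of actc1b. Myosin-binding protein C gene mybpc2b had an SD of 0.275 and signals from 406 to 792, the highest of them in the array titled TCDD 3. The essential light chain genes myl1 and mylz3 ran from 11258 to 15896 and from 18752 to 23447, and myl13 from 4870.1 to 6169.

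At the Z-disc, actn3b, an alpha-actinin gene of fast fibres, ran from 2655 to 4669. Its paralog actn2b was dim, from 66.3 to 151, with an SD of 0.341. The myozenin gene myoz1b, whose product binds alpha-actinin, ran from 1853 to 2818, and desma, a gene of the intermediate filament protein desmin that links Z-discs, from 1439 to 2079. Titin gene ttn.2 had the second largest SD of the tested members, 0.394, with signals from 3126 to 7641. The largest belonged to myl9b, a light chain gene of smooth muscle and non-muscle cells, with an SD of 0.613 and signals from 97.4 to 364. The isopeptidase gene desi1b followed actn2b, with 0.33. Of the other forms and proteins, desi1a, desi2, mylipa, mylka, ckmt1, ckmt2a, actn1, acta2 and myl12.1 stayed under a 1.5-fold range. The ratio of the highest to the lowest signal was 2.08 for tpm4b, 1.76 for tnnt2a, 1.65 for tnnc1a, 1.61 for myl6 and 1.54 for tpm4a, and 2.7 for the untested tnnt2c.

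Among the soluble proteins, 9 parvalbumin genes were measured. The signal of pvalb2 ran from 29797 to 37663, and pvalb8 had the second smallest SD of the tested members, 0.0706. The other 7 parvalbumins, pvalb1, pvalb3, pvalb4, pvalb5, pvalb6, pvalb7 and pvalb9, had ratios of the highest to the lowest signal between 1.24 and 1.62. Creatine kinase gene ckmb ran from 16120.1 to 20999, and ckma from 16264 to 20149. Over the 53 members, the median share of the variation (sum of squares) that lay between letter C and the 2 runs of letter B was 43.5%, against 41.6% over all probe sets tested. The share between the 4 titles was 30.4%, against 19.5%. The shares by run and by title are not on one scale, since more groups take a larger share by chance. In letter B the titles also go with the runs.

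The members did not pass the test by title. In the comparison of E2+TCDD with DMSO, 0 of 53 members passed an adjusted p under 0.05 (limma, two-sided, with the letter as a term), where 0.0602% of all probe sets passed. An unadjusted p under 0.05 was reached by 9 members, 17.0% of them against 11.6% of all probe sets. Of these, 2 were higher (3.77% of members, 5.81% of all probe sets) and 7 lower (13.2% against 5.79%). The difference was above 0 in 31 members, 58.5% against 49.9%. The median log2 difference of the members was 0.028, from -0.39 to 0.42. For 47 of 53 members the 95% interval of the difference lay within 0.5 on the log2 scale in either direction, a 1.41-fold change.

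The member with the smallest p was tpm1, a tropomyosin gene expressed in skeletal and cardiac muscle. Its signal was 2254, 2236 and 2321 in E2+TCDD arrays 1 to 3, against 2591, 2882 and 2868 in DMSO arrays 1 to 3. All 3 E2+TCDD arrays lay below all 3 DMSO arrays, with a log2 difference of -0.29 (SE 0.063, adjusted p = 0.0888). The difference was -0.33 within letter B and -0.20 within letter C. Over 26 alternative settings its adjusted p ran from 0.015 to 0.543 and passed in 2: with array weights, where 1.8% of all probe sets passed, and without the array titled TCDD 1, where 1.43% did. Titles accounted for 85.0% of the variation of tpm1, the highest such share among the members. Since tpm1 was picked for its small p by title, that share is no further support.

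The light chain gene myl6, a form of smooth muscle and non-muscle cells, had 1680.2, 1488 and 1581 in E2+TCDD arrays and 2377, 1745 and 1823 in DMSO arrays. The groups did not overlap, with a log2 difference of -0.31 (SE 0.084, adjusted p = 0.168). DMSO 1 stood well above every other array, and the difference was -0.22 within letter B and -0.50 within letter C. The signal of ttn.2 was 3252, 5468 and 7641 in E2+TCDD arrays, against 3126, 4615 and 3879 in DMSO arrays. Here the groups overlapped, and the log2 difference was 0.42 (SE 0.161, adjusted p = 0.317). A second ttn.2 probe set gave 0.33 (adjusted p = 0.284).

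In the comparison of TCDD with DMSO, 0 of 53 members and 0.0% of all probe sets passed the test. At an unadjusted p under 0.05 there were 10 members, 18.9% of them against 9.58% of all probe sets. Of these, 6 were higher (11.3% against 4.94%) and 4 lower (7.55% against 4.64%). The difference was above 0 in 32 members, 60.4% against 51.0%. The median log2 difference was 0.055, and 0.094 in the 37 skeletal genes, against 0.003 for all probe sets. It was 0.058 within letter B but -0.018 within letter C, and 0.005 after quantile normalization. The 2 smallest p-values belonged to genes with lower values. The troponin I gene tnni2b.1 had 1759.6, 2016 and 1816 in TCDD arrays, against 2096, 2432 and 2377 in DMSO arrays, a log2 difference of -0.30 (SE 0.079, adjusted p = 0.233). Its TCDD arrays all lay below its DMSO arrays.

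The parvalbumin gene pvalb7, which zebrafish Purkinje neurons also express, had 1301, 1071 and 949 in TCDD arrays and 1388, 1345 and 1477 in DMSO arrays, a log2 difference of -0.35 (SE 0.099, adjusted p = 0.269). Those groups did not overlap either. The genes named in the comparisons by title were picked for small p-values, so separated groups are no further support in them. The essential light chain gene mylz3 of fast fibres had 23447, 22443 and 22594 in TCDD arrays, against 19639, 20035 and 19306 in DMSO arrays. The lowest TCDD array was above the highest DMSO array, and the log2 difference was 0.21 (SE 0.062, adjusted p = 0.275). For ttn.2 the TCDD arrays had 4895, 5112 and 6351, against the DMSO values given above, a log2 difference of 0.50 (SE 0.161, adjusted p = 0.318). It was 0.43 within letter B and 0.64 within letter C, where 1 array stood for each group. A second ttn.2 probe set gave 0.31 for TCDD over all arrays (adjusted p = 0.409).

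In the comparison of E2 with DMSO, 0 of 53 members and 0.0% of all probe sets passed. Unadjusted p-values under 0.05 occurred in 2 members, 3.77% against 6.62% of all probe sets. Both were lower, where 2.74% of all probe sets were lower and 3.88% higher. These were myl6, with 1713, 1609 and 1477 in E2 arrays, and tpm1, with 2369, 2517 and 2489.8. Set against the DMSO values above, the log2 difference was -0.29 (SE 0.084, adjusted p = 0.73) for myl6 and -0.17 (adjusted p = 0.73) for tpm1. The median log2 difference of the members was -0.024, and 17 of 53 members were above 0, where 51.7% of all probe sets were. The 3 comparisons share their DMSO arrays, so they are no independent views of tpm1 or myl6.

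**Figure D2:**
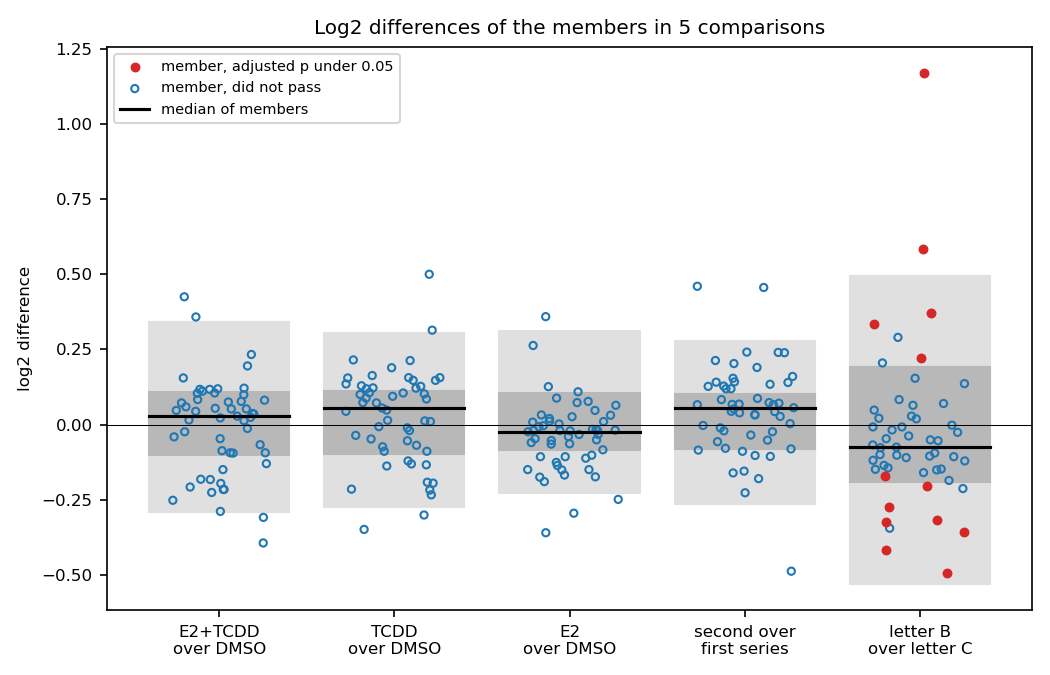
Log2 differences of the 53 tested members in 5 comparisons, 1 point per member (filled where the adjusted p was under 0.05) with a bar at their median. Grey bands hold the middle 50% and the middle 90% of all probe sets tested. Filled points occur between the letters only, where myl9b stands highest at 1.17.

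Without the 6 arrays that their markers contradicted, few arrays remained: E2+TCDD 1 and 3, TCDD 1 alone, E2 1 alone, and DMSO 1 and 2. The single TCDD and E2 arrays are then assumed to vary like the others. With 1 residual degree of freedom, p-values of this fit rest almost wholly on the spread of other probe sets. For the single TCDD and E2 arrays the size of the differences is given, without a p-value per gene. Counts of members past a threshold are also given for them, beside the share of all probe sets. With a single array in the group, no conclusion is drawn from those counts. In this fit ttn.2 was higher with E2+TCDD, with a log2 difference of 0.39 (adjusted p = 0.0118), the 1 member that passed, where 2.14% of all probe sets passed. Within letter C the ttn.2 difference of E2+TCDD 1 from DMSO 1 was 0.057. In letter B, E2+TCDD 3 lies in the second run and DMSO 2 in the first, and ttn.2 differed by 0.46 between those runs. Title and run cannot be told apart for that pair. Against DMSO, TCDD 1 was higher for ttn.2 by 0.81, for tpma by 0.36 and for myoz1b by 0.50. These 3 of 53 members stood beside 2.88% of all probe sets. For E2, 0 members passed, with 0.224% of all probe sets, and 6 had an unadjusted p under 0.05 (11.3% against 6.86%). The TCDD 1 array stood far above the other letter C arrays in ttn.2 and tpma. Its tpma signal was 21442, against 17807, 17797 and 17139 in E2+TCDD 1, E2 1 and DMSO 1. Of the other genes named by title above, tpm1 gave -0.255 and myl6 -0.32 with E2+TCDD in this fit. For TCDD 1, tnni2b.1 gave -0.30, pvalb7 -0.13 and mylz3 0.29. For E2 1, myl6 gave -0.38 and tpm1 -0.16.

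A second reading of the labels grouped arrays by number, so that each letter B array of the first run took the group of the letter C array with its number, with 2 arrays per group. The markers of the titles went with this reading: cyp1a was 21651 in E2 3 and 21022.5 in E2 2, against 413 in DMSO 3 and 329 in DMSO 2, and cyp19a1b was 267 in E2 3 and 287 in DMSO 3, against 45.7 in E2 2 and 50.2 in DMSO 2. In each of the 4 pairs both markers were high or low in both letters. If the 2 arrays of a pair share an RNA, which the sources do not say, the p-values of this fit measure technical spread only. Under this reading 0 of 53 members passed in each comparison with DMSO, where 1.17% of all probe sets passed for E2+TCDD, 1.66% for TCDD and 0.0172% for E2. At an unadjusted p under 0.05 there were 6 members for E2+TCDD (11.3% against 9.71% of all probe sets), 4 for TCDD (7.55% against 11.0%) and 1 for E2 (1.89% against 4.05%). The smallest p-value of a member belonged to desi1b. It had 429 and 299 in the arrays titled E2 3 and E2+TCDD 1, against 309 and 199 in DMSO 2 and DMSO 1, a log2 difference of 0.50 (SE 0.145, adjusted p = 0.162). In a fit by title with letter C and the 2 runs as separate terms, 2 members passed for E2+TCDD, where 2.54% of all probe sets passed. In that fit only the 4 letter C arrays link titles with TCDD to the others, since in letter B they lie in different runs. The members were myl6, with a log2 difference of -0.44 (adjusted p = 0.0424), and desi1b, with 0.60 (adjusted p = 0.049), and DMSO 1, a letter C array, stood far above the others in myl6. A second probe set of desi1b, with a mean signal of 112, did not pass in any of the 5 comparisons made.

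Between the runs of letter B, many skeletal members were somewhat higher in the second run, and none passed the test. The comparison set the 4 arrays of the second run against the 4 of the first. The titles differ between the runs, but the markers varied within each. In the second run cyp1a was 21509.5 in E2+TCDD 3 and 20170 in E2+TCDD 2, against 264 in TCDD 3 and 324 in TCDD 2. There cyp19a1b was 256.4 in E2+TCDD 3 and 256.9 in TCDD 3, against 36.1 in E2+TCDD 2 and 52.1 in TCDD 2. By these signals each run held arrays with neither, either or both markers high. Adjusted p-values under 0.05 were found for 0 of 53 members and 0.447% of all probe sets. At an unadjusted p under 0.05 there were 19 members, 35.8% against 14.7%. They comprised 14 higher members, 26.4% of them against 8.06% of all probe sets, and 5 lower members, 9.43% against 6.66%. The runs did not overlap in 7 higher members, 13.2% against 4.54% of all probe sets, and in 1 lower member, 1.89% against 3.69%. The log2 difference was above 0 in 35 of 53 members, 66.0% against 53.2%, with a median of 0.056 against 0.010. Of the 37 skeletal genes, 30 were above 0, with a median of 0.068, and of the 16 other tested members 5 were.

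These differences were small, and their size depended on the scaling. After quantile normalization the median of the 37 skeletal genes was 0.033, with 29 above 0, and that of all 53 was 0.023. At an unadjusted p under 0.05 there were then 13 members (24.5% against 14.3% of all probe sets), 8 of them higher (15.1% against 7.41%) and 5 lower (9.43% against 6.87%). On simulated data for this comparison, 0.833% of log2 changes of 0.25 were found and 72% of changes of 0.5. The simulation changed 200 of 11626 probe sets, so these shares are over probe sets in general. The share among the members, whose median SD was 0.141 against 0.196 for all, was not simulated. The median difference of the members was below 0.25, the smaller of the simulated sizes.

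The smallest p belonged to myl1, an essential myosin light chain gene of fast fibres. Its signal was 15771, 14039, 15301 and 15896 in the second run (E2+TCDD 3, E2+TCDD 2, TCDD 3 and TCDD 2), against 12510.2, 13216, 12627 and 13235 in the first (E2 3, E2 2, DMSO 3 and DMSO 2). The same order of arrays is kept below. Every array of the second run lay above every array of the first, with means of 15252 ± 848 and 12897 ± 382 (SD, n = 4 each). The log2 difference was 0.24 (SE 0.047, adjusted p = 0.0558), a 1.18-fold level. Letter C arrays (E2+TCDD 1, TCDD 1, E2 1 and DMSO 1) had 13704, 11258, 11937 and 13143, with a mean of 12510.2.

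Creatine kinase gene ckma had 19721, 17927, 18791 and 20149 in the second run, against 16649, 16831, 16264 and 16740.4 in the first. The runs did not overlap, and letter C arrays, at 16662, 17133, 16563 and 16959, lay with the first run. The log2 difference was 0.20 (SE 0.043, adjusted p = 0.0642), and 83.5% of the gene's variation over the 12 arrays lay between letter C and the 2 runs. Its paralog ckmb, with means of 19648 ± 1149 in the second run and 17596 ± 1234 in the first (SD, n = 4 each), gave 0.16 (SE 0.057, adjusted p = 0.222).

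The light chain gene mylz3 had 23378, 20104, 22594 and 22443 in the second run, against 18752, 19409, 19306 and 20035 in the first, without overlap, a log2 difference of 0.19 (SE 0.049, adjusted p = 0.101). The array titled E2+TCDD 2 was the lowest of the second run in myl1, ckma and mylz3. Without it these 3 members passed the test, with the smallest adjusted p, 0.0208, for myl1, 0.0356 for ckma and 0.0298 for mylz3, where 0.232% of all probe sets passed. That array was the one that narrowed their difference, so passing without it is no further support. Leaving out any other single array of letter B gave 0 members. These genes were picked for small p-values, so runs without overlap are no further support in them either. With array weights 1 member, myl1, passed, where 0.55% of all probe sets did.

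**Figure D3:**
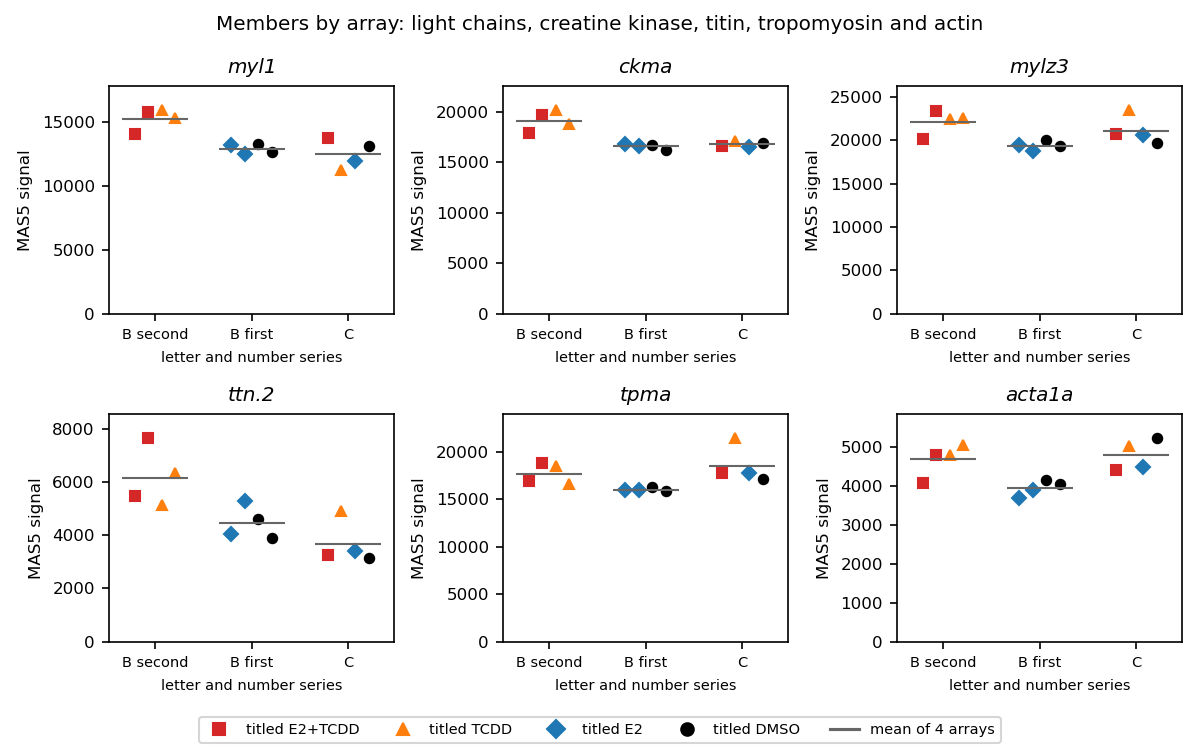
MAS5 signal of myl1, ckma, mylz3, ttn.2, tpma and acta1a on the 12 arrays, by letter and run of numbers, with a line at the mean of 4 arrays and marks by title. In myl1, ckma and mylz3 all 4 arrays of the second run lie above all 4 of the first, and in tpma the highest array is TCDD 1 in letter C.

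Titin gene ttn.2 had 7641, 5468, 6351 and 5112 in the second run and 5264, 4045, 3879 and 4615 in the first. The runs overlapped, since E2 3 lay above TCDD 2, and the log2 difference was 0.46 (SE 0.121, adjusted p = 0.112). A second probe set of ttn.2, with a mean signal of 3833, gave 0.41 (adjusted p = 0.0666). The other 2 probe sets of the gene were too dim for the tests, with mean signals of 10.8 and 1.7.

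Alpha-actin gene acta1a had 4785, 4075, 5063 and 4798 in the second run, against 3893, 3686, 4051 and 4161 in the first, a log2 difference of 0.24 (SE 0.068, adjusted p = 0.126). Letter C arrays of acta1a, at 4404, 5020.1, 4491 and 5228, were as high as the second run. Tropomyosin gene tpma did not overlap between the runs, with means of 17703 ± 1125 in the second run and 16022 ± 188 in the first (SD, n = 4 each) and a log2 difference of 0.14 (SE 0.047, adjusted p = 0.194). The light chain genes myl10, myl13 and myl12.1 did not overlap either, with log2 differences of 0.043, 0.14 and 0.12. For actn3b the difference was 0.21 (SE 0.075, adjusted p = 0.222).

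Other families were mixed. Of 9 parvalbumins 6 were above 0, from -0.23 for pvalb7 to 0.13 for pvalb5. Of 5 tropomyosins 2 were above 0. The largest lower value belonged to desi1b, with 251, 286, 243 and 270.3 in the second run against 429, 451, 325 and 309 in the first, a log2 difference of -0.49 (SE 0.121, adjusted p = 0.0939). All 4 arrays of the second run were below all 4 of the first. A second probe set of desi1b gave 0.051 (adjusted p = 0.902).

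**Figure D4:**
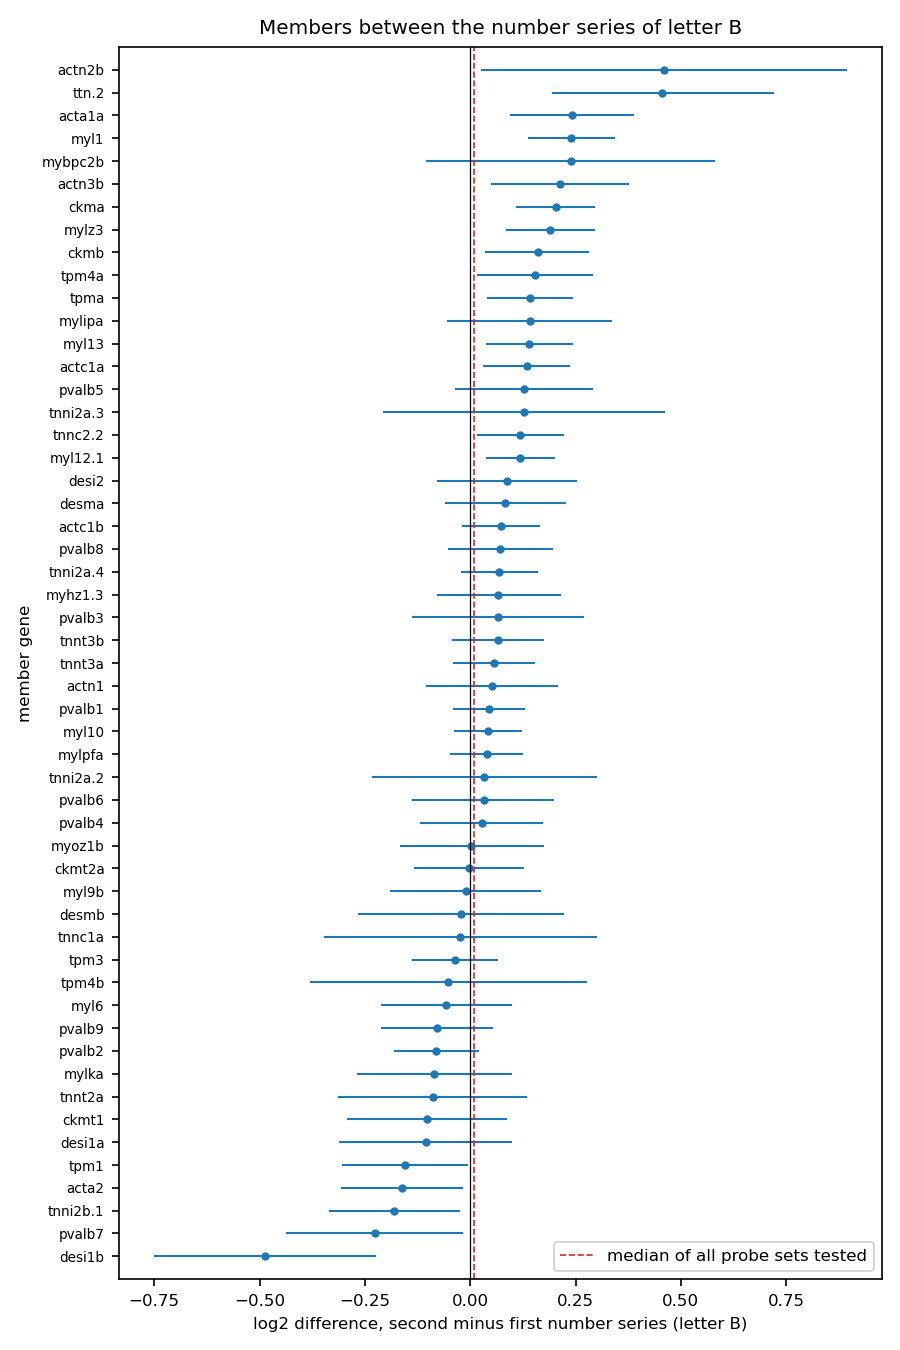
Log2 difference of each tested member between the second and the first run of numbers in letter B, as points with 95% intervals from the fit, and the median of all probe sets tested as a dashed line. Of 53 members 35 lie above 0, with ckma, mylz3 and myl1 among the narrowest intervals clear of 0, and desi1b is the lowest.

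Genes of the same pathway outside the rule were read from lists. Of 35 excitation-contraction coupling genes, which carry the nerve signal to calcium release, 11 were tested. A single gene passed between the runs: casq2, a calcium-binding protein gene of the sarcoplasmic reticulum, had 1274, 1190.3, 1172 and 1339.5 in the second run against 848, 875, 837 and 997 in the first. Its log2 difference was 0.48 (SE 0.072, adjusted p = 0.019), and the runs did not overlap. Its adjusted p passed in 11 of 17 alternative settings. Of the 11 genes of this list 10 were above 0, with a median of 0.095.

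Of 54 genes of the Z-disc, the thin filament and the membrane linkage, 19 were tested, 13 were above 0 and 1 passed. This was dag1, which encodes dystroglycan, a link from the fibre to the matrix that other tissues also express. It had 945, 985, 944 and 933 in the second run against 752, 708, 716 and 791 in the first, a log2 difference of 0.35 (SE 0.060, adjusted p = 0.0313), and passed in 9 of 17 alternative settings. Nebulin gene neb, a ruler of the thin filament, had 4233, 3071, 3628 and 3477 in the second run against 2506, 2180.4, 2710.4 and 2964 in the first, with an adjusted p of 0.0687. Lists of myosin folding and turnover (11 of 25 tested), myogenic regulators (11 of 31) and muscle glycolysis and energy (23 of 33) had 0 genes past the test between the runs, with medians of 0.087, 0.082 and 0.041. At an unadjusted p under 0.05 these lists had 1, 1 and 5 higher genes and 0, 0 and 2 lower ones. The glycolysis list shares the calcium pump gene atp2a1 with the coupling list.

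Markers of other tissues also differed between the runs. Of 18 exocrine pancreas genes 13 were tested, 0 passed and 0 were above 0, with a median log2 difference of -0.41 and 11 lower genes at an unadjusted p under 0.05. Averaged over the list, log2 signals were 9.84 to 10.45 in the second run, against 10.47 to 11.0 in the first. Of 20 neuronal genes 15 were tested, 13 were above 0, and elavl3 passed with 0.28 (adjusted p = 0.049). The list's mean was 11.79 to 11.87 in the second run, against 11.7 to 11.73 in the first. Cardiac genes (6 of 15 tested, median -0.055) and smooth muscle genes (5 of 11 tested, median -0.085) had 0 past the test, and 0 and 2 at an unadjusted p under 0.05. These lists share tnnt2a and tnnc1a (cardiac) and acta2, mylka and desmb (smooth muscle) with the members. Control probe sets on an alpha-actin mRNA gave middle over 3′ signal ratios of 0.77 to 0.818 in the second run, against 0.712 to 0.75 in the first. The 5′ over 3′ ratios overlapped between the runs, at 0.111 to 0.174 in the second and 0.0922 to 0.131 in the first. So did those of GAPDH control probe sets, at 0.518 to 0.581 in the second run and 0.458 to 0.564 in the first. The part of tissue makeup and of RNA integrity in the members' differences was not tested. In the 3 comparisons by title, 0 genes of any of the 9 lists passed the test. At an unadjusted p under 0.05, 9 of the 13 tested pancreas genes were lower in arrays titled E2+TCDD and 11 in those titled TCDD. Of all probe sets 5.79% and 4.64% were lower. In letter B these titles lie in the second run, so title and run cannot be told apart there. The markers of E2+TCDD 2, TCDD 2 and TCDD 3 also went against their titles, with cyp1a at 324 in TCDD 2 and 264 in TCDD 3. The other lists had 0 to 4 higher and 0 to 3 lower genes.

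Between the letters, members changed in both directions, and about as often as other genes. The first run of letter B was compared with letter C as 4 pairs of arrays with one number. The test was passed by 13 of 53 members, 24.5% against 29.6% of all probe sets, with 5 higher in letter B (9.43% against 14.7%) and 8 lower (15.1% against 14.9%). The log2 difference was above 0 in 16 members, 30.2% against 50.2%, with a median of -0.075. After quantile normalization 16 passed, 10 higher and 6 lower, where 29.5% of all probe sets passed. Of the 13 members, 11 passed in both, all with the same sign. Without E2 2, 8 members passed, beside 26.6% of all probe sets, and without TCDD 1 there were 8 beside 26.7%.

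The largest change was in myl9b. It had 316, 342, 342 and 325 in letter B, against 117, 170.1, 185 and 97.4 in letter C, with pairs in the same order. The letters were far apart, with means of 331 ± 12.9 and 142 ± 41.8 (SD, n = 4 each), a 2.25-fold level and a log2 difference of 1.17 (SE 0.134, adjusted p = 6.77e-05). The second run of letter B, at 304, 364, 343 and 306, lay with the first. Another regulatory light chain gene, myl12.1, differed by -0.15 (SE 0.060, adjusted p = 0.0756).

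In the thick filament, myhz1.3 had 14566, 13371, 14022 and 14821 in letter B and 10938, 11451, 11654 and 9906 in letter C. It was higher in every pair and the letters did not overlap, with a log2 difference of 0.37 (SE 0.066, adjusted p = 0.00108). At the Z-disc, actn3b had 3289, 3538, 3442 and 4019 in letter B and 2655, 2773, 3067 and 2802 in letter C, also without overlap, a log2 difference of 0.34 (SE 0.071, adjusted p = 0.00321). Of the tropomyosins, tpm4a averaged 1833 ± 116 in letter B and 1572 ± 140.0 in letter C (SD, n = 4 each), a log2 difference of 0.22 (adjusted p = 0.0329).

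Lower in letter B were 2 parvalbumins. The signal of pvalb6 was 768, 797, 682 and 691 in letter B, against 1047, 1054, 963 and 1091 in letter C, a log2 difference of -0.49 (SE 0.081, adjusted p = 0.000655). The letters did not overlap in pvalb6. For pvalb3 the values were 807, 795, 867 and 1038 in letter B and 1053, 1043, 1099 and 1171 in letter C, a difference of -0.32 (SE 0.079, adjusted p = 0.00811). In all, 9 of 9 parvalbumins had values below 0 in letter B, and 8 of 9 after quantile normalization.

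**Figure D5:**
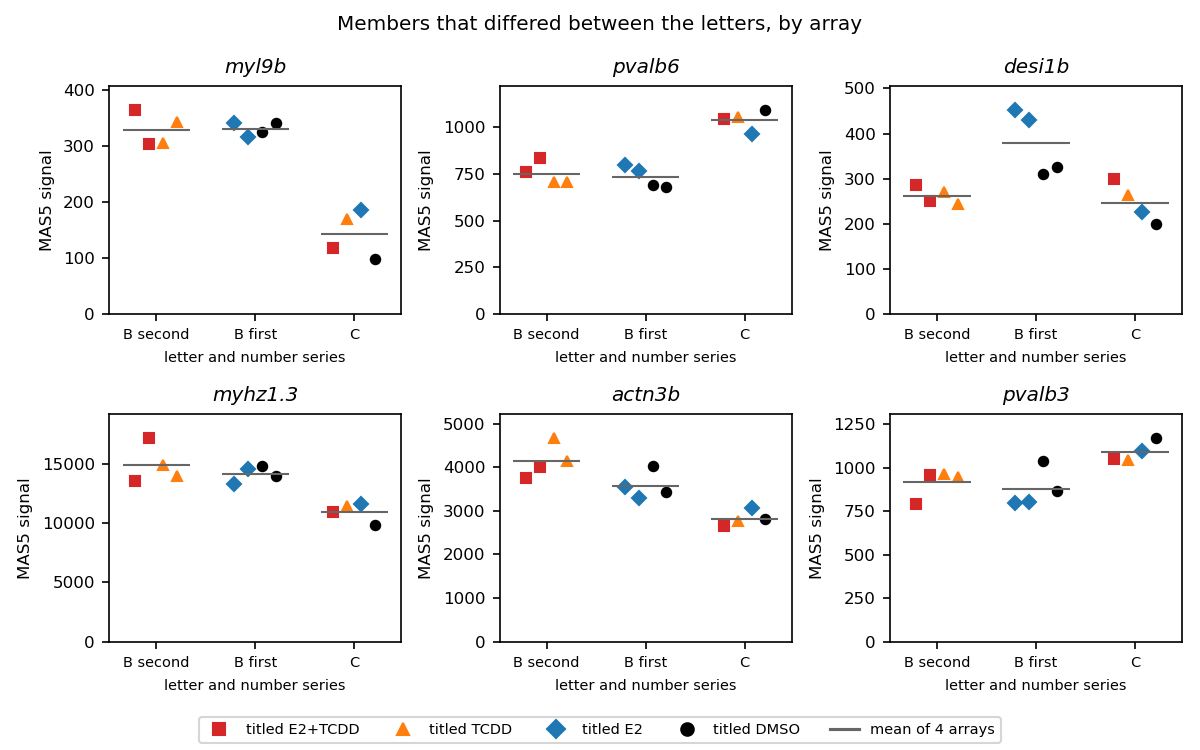
MAS5 signal of myl9b, pvalb6, desi1b, myhz1.3, actn3b and pvalb3 on the 12 arrays, by letter and run of numbers, with a line at the mean of 4 arrays and marks by title. The 4 letter C arrays lie below all letter B arrays in myl9b, myhz1.3 and actn3b and above them in pvalb6.

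The actin genes acta1a and actc1b were lower as well. All 4 actins had values below 0, and 2 of 4 after quantile normalization. For acta1a the values were 3893, 3686, 4051 and 4161 in letter B, against 4404, 5020.1, 4491 and 5228 in letter C, a log2 difference of -0.27 (SE 0.068, adjusted p = 0.00806). For actc1b they were 35671, 35288, 32593 and 33343 in letter B and 42989, 38600.3, 33207 and 39937 in letter C, a difference of -0.17 (SE 0.057, adjusted p = 0.0351), which turned to 0.01 after quantile normalization. For tpma the log2 difference was -0.20 (adjusted p = 0.0245), and -0.064 with an adjusted p of 0.438 after quantile normalization. The desmin gene desmb averaged 135 ± 13.8 in letter B and 186 ± 24.7 in letter C (SD, n = 4 each), a difference of -0.42 (adjusted p = 0.0272). The cardiac troponin T gene tnnt2a averaged 206 ± 16.9 in letter B and 270.2 ± 38.3 in letter C (SD, n = 4 each), a difference of -0.36 (adjusted p = 0.0274). For desi2 the means were 308 ± 8.9 in letter B and 392 ± 48.0 in letter C (SD, n = 4 each), a difference of -0.33 (adjusted p = 0.0281).

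Probe sets of one gene disagreed between the letters. The brightest probe set of desi1b had 429, 451, 325 and 309 in letter B, against 299, 263, 226 and 199 in letter C. It gave 0.58 (adjusted p = 0.00103), and the second -0.23 (adjusted p = 0.258). The brightest of tnni2a.4 gave -0.14 (adjusted p = 0.0705), and its second, with a mean signal of 12912, 0.31 (adjusted p = 0.00152). For ttn.2 the values were 0.29 (adjusted p = 0.0685) and -0.084 (adjusted p = 0.477). Between the runs of letter B both tested probe sets of ttn.2 and of tnni2a.4 had the same sign. Those of desi1b did not, with -0.49 for the brightest and 0.051 for the second.

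One of the control ratios moved with the letter. Control probe sets on the GAPDH mRNA gave 5′ over 3′ ratios of 0.458 to 0.564 in the 4 letter B arrays, against 0.635 to 0.737 in letter C. Alpha-actin ratios overlapped between the letters, with 5′ over 3′ at 0.0922 to 0.131 in letter B and 0.0922 to 0.193 in letter C, and middle over 3′ at 0.712 to 0.75 and 0.679 to 0.771. The part of RNA integrity in the members' differences was not tested. Among the members, myl9b, pvalb6, myhz1.3, actn3b, acta1a and pvalb3 passed under all 17 alternative settings.

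Pathway genes outside the rule also moved in both directions with the letter, where 14.7% of all probe sets were higher in letter B and 14.9% lower. Of the coupling list 1 gene was higher in letter B and 2 lower. The calcium channel subunit gene cacng1a was higher by 0.54 (adjusted p = 0.00227), the calcium pump gene atp2a2a gave -0.42 (adjusted p = 0.00591), and rapsn, whose product clusters acetylcholine receptors, -0.56 (adjusted p = 0.0084). Of the Z-disc list 3 were higher and 1 lower: neb by 0.49 (adjusted p = 0.0049), the filamin C gene flncb by 0.38 (adjusted p = 0.0149), pdlim7 by 0.21 (adjusted p = 0.042), and the capping protein gene capzb with -0.45 (adjusted p = 0.00347).

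Of the folding and turnover list 2 were higher and 1 lower. The muscle RING-finger ubiquitin ligase gene trim63a was higher by 0.57 (adjusted p = 0.00214), smyd2a by 0.26 (adjusted p = 0.0288), and the chaperone gene hsp90aa1.2 gave -0.31 (adjusted p = 0.0166). Of the myogenic regulators 3 were higher, with prox1a, a transcription factor gene of slow fibres, at 0.50 (adjusted p = 0.00118), mef2d at 0.44 (adjusted p = 0.00214) and eya1 at 0.34 (adjusted p = 0.0124). The remaining one, tcf12, was lower at -0.28 (adjusted p = 0.016).

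In the glycolysis and energy list 3 genes were higher and 11 lower of 23 tested. The creatine synthesis genes gatm and gamt gave -0.36 (adjusted p = 0.00146) and -0.29 (adjusted p = 0.00299), and the lactate dehydrogenase gene ldha and the glycogen phosphorylase gene pygmb gave 0.38 (adjusted p = 0.00214) and 0.34 (adjusted p = 0.00224). Of the other tissues, 1 cardiac gene (tnnt2a) and 2 smooth muscle genes (tagln at -0.49, adjusted p = 0.000398, and desmb) were lower, with 0 higher. The pancreas list had 1 higher and 5 lower, and the neuronal list 2 higher and 3 lower. Their part in the members' differences was not tested.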

How the data were processed

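Signals of 12 arrays were read as deposited. Per the submitters' processing notes the authors computed MAS5 values with Affymetrix Expression Console, whose version is not given in the sources used here. They are linear intensities, which per the values of the deposited table share one trimmed mean of 500.13 per array. Of 15617 probe sets, 115 controls were left out. Of the table's probe sets 10802 had 1 symbol in the platform annotation, 135 several and 4680 none, and all 54 members' symbols occur in RefSeq.

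Log2(signal + 16) was fitted with limma 3.58.1 (R 4.3.3, eBayes with a variance trend) on the 11626 probe sets whose mean reached the 25th percentile. P-values were two-sided and adjusted by Benjamini-Hochberg over all of them, with a threshold of 0.05. A pseudocount makes the differences of dim genes smaller. Fits by title held all 12 arrays and the letter. That the letter marks a batch is inferred from the labels. The fit between letters held the shared number as a block. On simulated data with 200 changed probe sets, 46.5% to 56.5% of log2 changes of 0.5 were found in the comparisons by title, 72% between the runs and 74.3% between the letters. The shares by title are for changes that follow the titles, 6 of which were contradicted by their markers. All these shares are over probe sets in general, not the members. Between the letters 3436 probe sets passed in the data, against 200 changed in the simulation. Intervals are 95% intervals of the fit. The number of arrays limits the precision.

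Members and gene lists were chosen with earlier results of these data known. Named were the brightest member of each family, members past the test (at most 10 per comparison), the 5 with the largest and the 5 with the smallest SD, list genes past the test (at most 4 per list) and the marker genes of the titles. Members with the smallest p where few or none passed, and neb, were named after their values were seen. Same-numbered replicates deviated together before the letter was taken into account (r 0.143 to 0.603 over 18 pairs) and not after it (-0.622 to 0.0202). The first replicate is letter C in every group, so taking out the letter by itself lowers correlations among those arrays. The check thus cannot decide on pairing, and replicate numbers were not taken as pairs beyond the letter. Alternatives covered the pseudocount, filter, normalization, array weights, probe set rule, member rule, batch terms, array grouping and leaving out each array.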

Additional observations from a re-analysis of the deposited data

Results flagged for a closer look

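The 4 arrays of letter C and of each run of letter B were searched, per tested member, for an array far from the other 3, by its gap to the nearest array over the whole range and Dixon's 95% limit. Of 159 sets 6 passed, 3.77%, where chance gives about 1 in 20, and 5 of the 6 lay in letter C. In letter C, DMSO 1 was high in myl6 at 2377, with the next array at 1713 (ratio 0.954). The same array was high in tnni2a.3 at 126, with the next at 81.7 (ratio 0.831). TCDD 1 was high in tpma at 21442, with the next at 17807 (ratio 0.845), and in ttn.2 at 4895, with the next at 3420 (ratio 0.834). E2+TCDD 1 was low in tnnt2a at 213, with the next at 284 (ratio 0.859). In the second run of letter B, E2+TCDD 2 was low in pvalb3 at 795, with the next at 946 (ratio 0.892).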

How the results depend on the processing

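For E2+TCDD against DMSO the count of members past the test, 0, became 1 (tpm1) with array weights, 2 (desi1b, myl6) with 3 blocks, where the 4 letter C arrays alone link titles with TCDD to the others, and 1 (ttn.2) without arrays whose markers contradict the title, and was 0 to 1 with single arrays left out (1 without TCDD 1). The median member difference turned to -0.01 with 3 blocks and to -0.036 with grouping by number. For TCDD against DMSO the count stayed 0 in every setting but that without the contradicted arrays. There TCDD 1 alone stands for its group, so no conclusion is drawn from the count. The median of TCDD against DMSO was 0.005 after quantile normalization, -0.013 with 3 blocks and 0.009 without the contradicted arrays. It was 0.004 with grouping by number and 0.094 without members of other forms. For E2 the median ran from -0.072 to -0.018 with single arrays left out. Between the runs the count of 0 became 1 with array weights and ran from 0 to 3 with single arrays left out (3 without E2+TCDD 2). Between the letters the median became -0.021 after quantile normalization, and actc1b reversed to 0.01. The count of 13 became 8 without members of other forms, 2 higher and 6 lower, and ran from 8 to 11 with single arrays left out, 8 without E2 2 and 8 without TCDD 1. Without the replicate block of shared numbers it was 11. With the title's replicate number as a block in place of the letter, counts by title stayed 0, 0 and 0. The causes of these shifts were not tested. Of 233 recomputed member calls between the letters, 194 stayed past the test with the same sign, 38 no longer passed and 1 reversed, and of 234 counts and medians 215 stayed close. Limits: 3 arrays per title, 6 titles contradicted by their markers, and log2 changes of 0.25 found at 0.833% between the runs on simulated data. That share is over probe sets in general, not the members.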
